A study of Mus musculus with 12 samples.

Results

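The genes described here encode proteins that coat, join or form lipid droplets in mouse liver: the CIDE proteins Cidea, Cideb and Cidec, the perilipins Plin2, Plin3, Plin4 and Plin5, the fat storage-inducing transmembrane (FIT) proteins Fitm1 and Fitm2, and the lipase inhibitor G0s2. They were chosen by name, 10 of the 54532 genes counted, and all 10 were found under 1 gene identifier each. Liver RNA was sequenced from male PPARγ flox/flox mice that had received, at 8 weeks of age, an adeno-associated virus of serotype AAV8 and then a fast-food diet (FFD) rich in fat, cholesterol and sugar. In PPARγ-KO mice the virus carried Cre recombinase, in wild-type (WT) mice it carried eGFP, and in both the thyroxine-binding globulin (TBG) promoter directed expression to hepatocytes. WT mice thus bore the same floxed alleles, diet and virus serotype, and the promoter left cells other than hepatocytes untargeted. Livers were taken after 2 and 5 months of FFD, with 3 libraries per genotype and time and 12 in all. The labels number the libraries of a group as repeats and do not say that each came from a separate mouse, so the p-values measure only the spread between these libraries.

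A lipid droplet is a core of triglyceride and cholesterol ester under a single layer of phospholipid, and proteins on that layer decide how large the droplet grows and how fast it is emptied. Perilipins sit on the surface and limit the access of lipases, Plin2 being the main coat protein of hepatocytes. CIDE proteins gather where droplets touch, Cidea and Cidec passing lipid from the smaller to the larger droplet, while Cideb, the form typical of normal liver, also serves the loading of lipid onto lipoproteins. FIT proteins act in the endoplasmic reticulum, where droplets bud, and G0s2 inhibits the triglyceride lipase encoded by Pnpla2. PPARγ is a nuclear receptor best known for driving lipid storage genes in fat cells, and its level rises in fatty liver.

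The libraries held 16367775 to 27452284 counts, and 20072 to 21966 genes had a count in each. Levels are normalized CPM, counts scaled to a common library size with edgeR's TMM factors over the 12 libraries, and are divided by gene length in kb wherever levels of different genes are compared. Pparg itself was not lower in the libraries labelled PPARγ-KO: mean CPM was 39.3 ± 1.92 (SD, n = 3) in WT and 56.3 ± 8.84 in PPARγ-KO at 2 months, and 38.4 ± 2.54 and 84.8 ± 9.05 at 5 months. The log2 fold change was 0.52 at 2 months (adjusted p = 0.0309, edgeR, lost with library size alone and without any 1 of 5 of the 6 libraries, up to 0.117) and 1.15 at 5 months (adjusted p = 2.57e-06). The counts are per gene and not per exon, so they do not show whether the floxed exons were missing and check the labels in neither direction. For the protein, the paper reported by Western blot an efficient and lasting loss of PPARγ in PPARγ-KO livers at both times. Of the WT libraries at 2 months, replicate 1 stood farthest from its group, and the same 6 of the 10 genes were called at 2 months without it.

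The 10 genes split into a group that fell in PPARγ-KO livers and a group that did not. At 2 months, 6 genes passed an adjusted p of 0.05 by edgeR's quasi-likelihood test and all 6 were lower: Cidea, Cidec, Plin2, Plin4, Fitm1 and Fitm2. Over all 14573 genes tested at that time, 3.56% passed. At 5 months the same 6 genes and G0s2 were lower, 7 of 10, against 18.4% of all 14138 genes tested. Neither time had a gene of the 10 that passed as higher. Their median log2 fold change was -1.05 and then -0.70, beside a median of -0.00 and -0.01 over all genes tested. All 3 PPARγ-KO libraries lay outside the range of the 3 WT libraries for 7 of the 10 genes at 2 months and for 8 of the 10 at 5 months, where 24.1% and 34.9% of all genes tested did so.

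**Figure D1:**
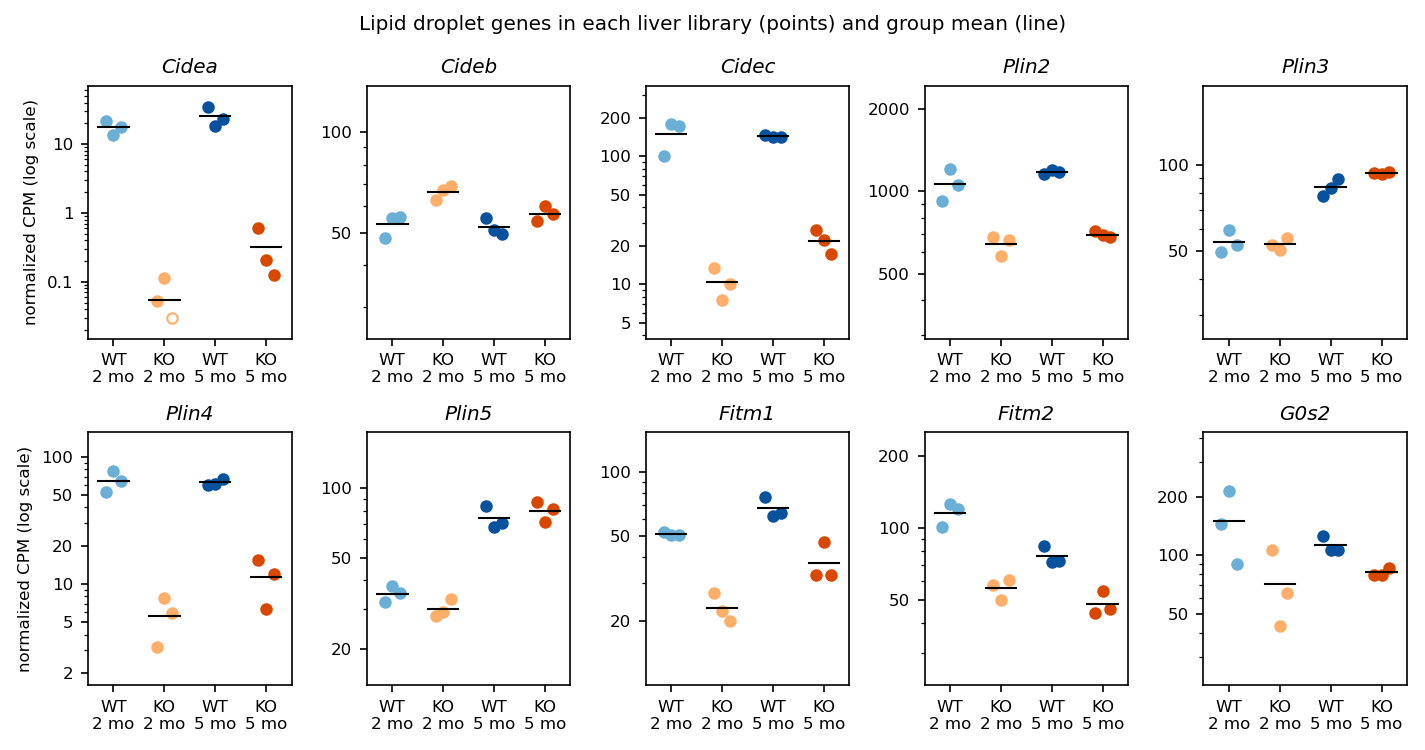
Normalized CPM on a log axis for each of the 10 genes, with a point per library, a line at the group mean of 3 libraries and an open point drawn at the foot of the Cidea panel for a library with 0 counts. In Cidea, Cidec, Plin2, Plin4, Fitm1 and Fitm2 every PPARγ-KO point lies below every WT point of its time, and in Plin3 and Plin5 the points separate by time.

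**Figure D2:**
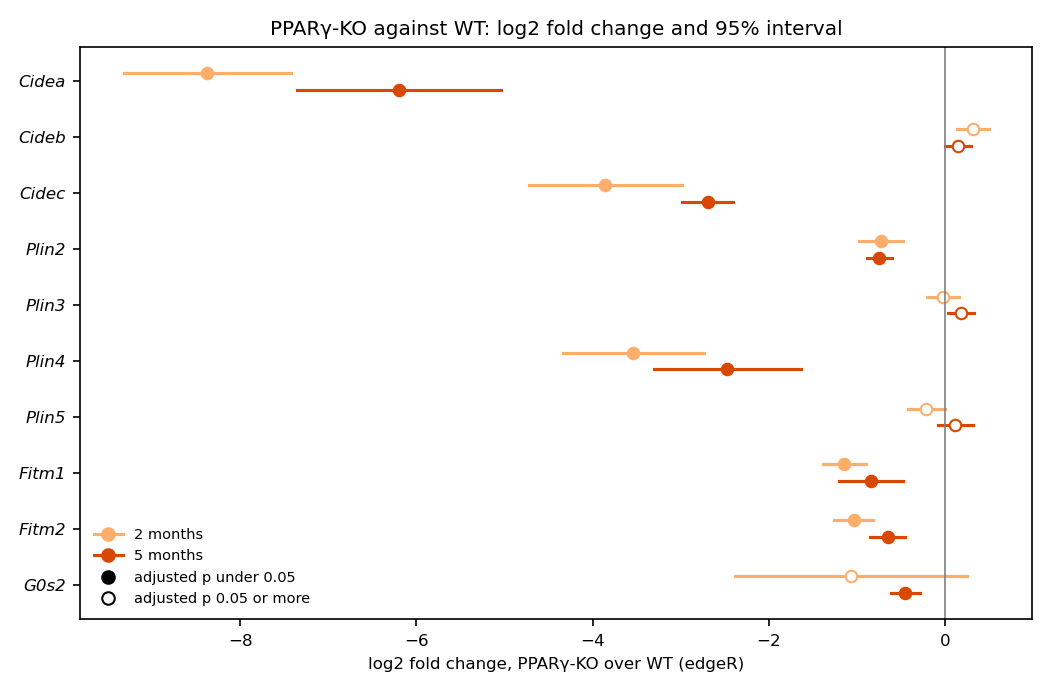
Log2 fold change of PPARγ-KO over WT from edgeR, with 95% confidence intervals, at 2 months (light) and 5 months (dark), for each gene. Filled points passed an adjusted p of 0.05, and the filled points run from -8.37 (Cidea, 2 months) to -0.45 (G0s2, 5 months). For Cidea at 2 months the interval drawn is narrower than that of counting error alone.

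Among the CIDE genes, Cidea showed the largest difference. It had 400, 262 and 350 counts in the WT libraries at 2 months and 1, 2 and 0 counts in the PPARγ-KO libraries. At 5 months it had 587, 312 and 438 counts in WT and 13, 4 and 2 in PPARγ-KO. No PPARγ-KO library came near the WT range at either time. From the summed counts, relative to the scaled library sizes, WT was 374 times PPARγ-KO at 2 months (95% interval 128 to 1817, exact binomial, counting error only) and 74.8 times at 5 months (47.7 to 125). The fitted log2 fold changes were -8.37 ± 0.423 (SE derived from the F statistic, adjusted p = 5.75e-05, edgeR) and -6.20 ± 0.473 (adjusted p = 0.000399). At 2 months the interval from this SE, -9.32 to -7.42, was narrower than that of counting error alone. It thus understates the uncertainty of the 2-month size. The antisense gene B430212C06Rik, which shares the locus of Cidea on the opposite strand without shared exon bases in GENCODE M21, was lower as well, by a log2 fold change of -3.79 at 2 months (adjusted p = 0.00138, edgeR) and -1.98 at 5 months (adjusted p = 0.000658). It had few counts, 152 in WT and 12 in PPARγ-KO summed at 2 months. Cidea as counted has a length of 1164 bases, against 1115 in GENCODE M21. Whether exon bases are shared in the counted annotation is thus not known, nor is the strand setting.

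Cidec, the CIDE protein of the large droplets of fat cells, also named Fsp27, fell from a far higher level. Its CPM was 99.8, 177 and 172 in the WT libraries at 2 months against 13.4, 7.52 and 10.0 in PPARγ-KO. At 5 months WT had 148, 142 and 141 and PPARγ-KO had 26.5, 22.0 and 17.2. The groups stayed well apart at both times, and the PPARγ-KO libraries of 5 months all lay above those of 2 months. The decrease was 14.5-fold at 2 months (log2 fold change -3.86 ± 0.341, adjusted p = 0.0117, edgeR) and 6.48-fold at 5 months (-2.70 ± 0.129, adjusted p = 2.91e-06). The 2-month call was lost with the replicate number as a block (adjusted p = 0.0854) and without PPARγ-KO replicate 3 (0.0644), and 4 of the 10 genes passed without that library. The gene lies at chr6:113424634-113435760 (mm10).

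Cideb did not follow its paralogs. CPM was 48.2, 55.2 and 55.9 in WT and 62.5, 67.1 and 68.8 in PPARγ-KO at 2 months, where every PPARγ-KO library was above every WT library. At 5 months the ranges overlapped, with 55.3, 51.0 and 49.7 in WT and 54.0, 60.0 and 57.0 in PPARγ-KO. The log2 fold change was 0.32 (95% interval 0.14 to 0.49, adjusted p = 0.0618, edgeR) at 2 months and 0.14 (-0.01 to 0.29, adjusted p = 0.182) at 5 months, so neither passed. At 2 months it passed as higher with the replicate block (adjusted p = 0.0355), with DESeq2, without a filter on low counts and in a fit of all 12 libraries, with adjusted p from 0.00663 to 0.188 over the alternatives. Of the exon bases of Cideb, 1136 (76.3%) also belong to exons of Nop9 on the opposite strand, and Nop9 had log2 fold changes of -0.01 and 0.08 that did not pass.

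Per kb of gene length, the CIDE family summed to 131.5 ± 23.1 CPM per kb in WT and 50.04 ± 1.37 in PPARγ-KO at 2 months, and to 134 ± 11.2 and 50.4 ± 2.41 at 5 months (SD, n = 3). Its make-up changed with genotype. Cidec made up 60.4% ± 8.02 of the sum in WT at 2 months and 57.9% ± 3.20 at 5 months, and in PPARγ-KO 11.1% ± 3.26 and 23.3% ± 4.32. The share of Cideb was 27.5% ± 2.94 and 26.1% ± 0.93 in WT, and 88.8% ± 3.22 and 76.1% ± 4.74 in PPARγ-KO. The lowest Cideb share in a PPARγ-KO library was 71% and the highest in a WT library 30.9%. Of the exon bases of Cideb, 76.3% are shared with Nop9, and how reads there were counted is not given. The level of Cideb per kb, and so these sums and shares, is thus uncertain.

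**Figure D3:**
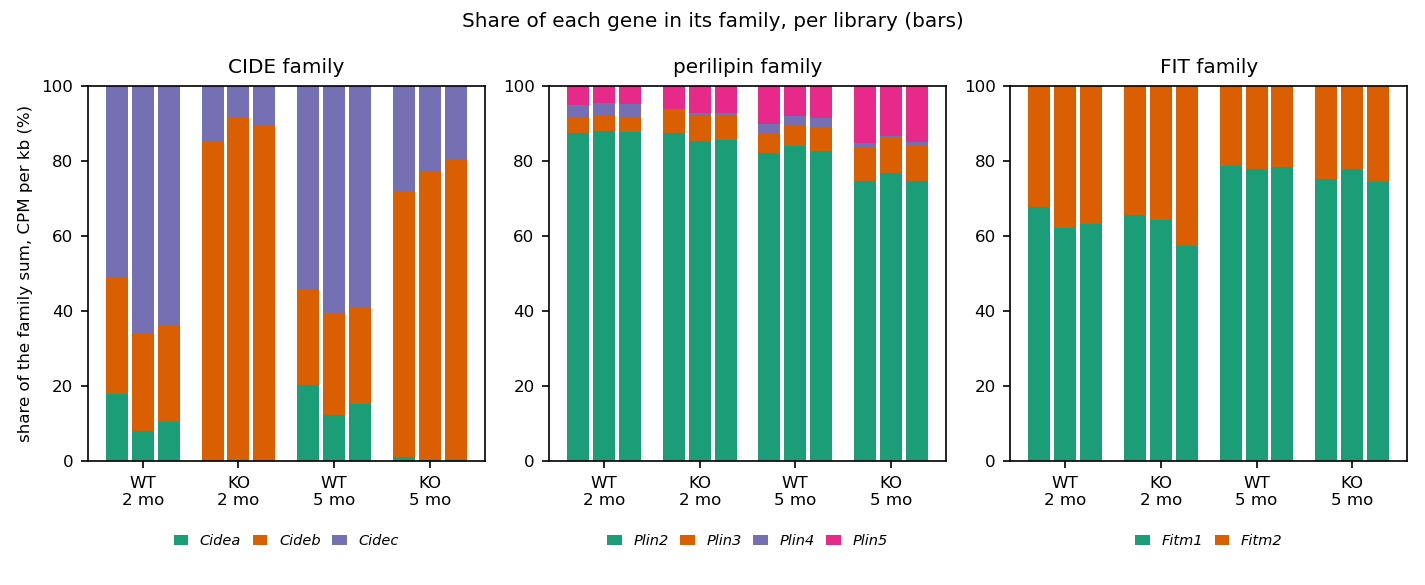
Share of each gene in the summed CPM per kb of its family, with a bar per library, for the CIDE, perilipin and FIT families. Cideb fills 71% or more of the CIDE sum in every PPARγ-KO library and 30.9% or less in every WT library, while the FIT bars differ mainly by time. The level of Cideb is uncertain because most of its exon bases are shared with Nop9.

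Of the perilipins, Plin4 and Plin2 fell and Plin3 and Plin5 did not. Plin4, which coats nascent droplets in fat cells, had a CPM of 52.8, 77.8 and 65.0 in WT and 3.21, 7.75 and 5.92 in PPARγ-KO at 2 months. The 5-month libraries had 60.2, 61.6 and 67.1 in WT and 15.4, 6.30 and 12.1 in PPARγ-KO. The highest PPARγ-KO value was below the lowest WT value at each time by a wide margin. The decrease was 11.6-fold at 2 months (log2 fold change -3.54 ± 0.322, adjusted p = 0.00963, edgeR) and 5.54-fold at 5 months (-2.47 ± 0.316, adjusted p = 0.00851). Without PPARγ-KO replicate 3 the 2-month adjusted p was 0.0586.

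Plin2 was the most abundant of the 10 genes in every group and fell by less. CPM was 924, 1209 and 1053 in WT and 680, 581 and 665 in PPARγ-KO at 2 months. At 5 months WT had 1157, 1192 and 1172 and PPARγ-KO 715, 691 and 679. The groups did not overlap, and the spread within a group was small at 5 months. The decrease was 1.66-fold at 2 months (log2 fold change -0.73 ± 0.113, adjusted p = 0.011, edgeR) and 1.68-fold at 5 months (-0.75 ± 0.0678, adjusted p = 1.24e-05). The 2-month adjusted p was 0.0521 without WT replicate 3. Per kb, Plin2 fell by more CPM than Plin4, the other perilipin that fell: its mean went from 302 ± 40.6 to 183 ± 15.2 CPM per kb at 2 months, while Plin4 went from 11.3 ± 2.17 to 0.974 ± 0.396.

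Plin3, the widely expressed perilipin that moves between cytosol and droplets, had a CPM of 49.6 to 59.2 in WT and 50.8 to 55.6 in PPARγ-KO at 2 months, with overlapping ranges. At 5 months it had 77.9, 83.3 and 89.9 in WT and 94.2, 93.1 and 94.6 in PPARγ-KO. The log2 fold change was -0.02 (95% interval -0.21 to 0.16, adjusted p = 0.91, edgeR) and 0.18 (0.03 to 0.32, adjusted p = 0.0883). Plin5, the perilipin of oxidative tissues that tethers droplets to mitochondria, had 32.1, 37.5 and 35.2 in WT and 28.1, 29.1 and 33.1 in PPARγ-KO at 2 months, where the ranges overlapped. At 5 months they overlapped too, with 84.0, 67.8 and 71.0 in WT and 87.3, 71.2 and 81.1 in PPARγ-KO. Its log2 fold change was -0.22 (-0.43 to -0.01, adjusted p = 0.252) and 0.12 (-0.08 to 0.32, adjusted p = 0.444). These intervals leave out a fall as large as that of Plin2 at either time. Plin1, the perilipin of fat cells and not one of the 10 genes, had 0 counts in 10 libraries and 1 and 2 counts in the others.

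Plin4, Plin5 and Plin3 lie in this order within chr17:56100591-56292873 (mm10), all on the minus strand, so the gene that fell and the genes that did not share a neighbourhood. Of the 7 other genes tested between them, 0 were called at 2 months by edgeR (2 at an unadjusted p under 0.05, and 1 by DESeq2), and 1 was called higher and 1 lower at 5 months. Fitm1 and Cideb likewise lie within chr14:55575617-55758458. Of the other genes tested there, 2 of 17 were called higher at 2 months, and at 5 months 2 of 16 were called higher and 1 lower. Among all genes tested, 3.56% were called at 2 months and 18.4% at 5 months.

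Both FIT genes fell. Fitm1, the FIT protein typical of skeletal muscle, had a CPM of 52.1, 50.5 and 50.4 in WT and 27.1, 22.2 and 20.02 in PPARγ-KO at 2 months. At 5 months these were 76.5, 62.4 and 64.3 in WT, all above 32.7, 46.8 and 32.8 in PPARγ-KO. Fitm2, the more widely expressed form, had 102, 126 and 120 in WT and 57.9, 50.3 and 61.0 in PPARγ-KO at 2 months. After 5 months it had 84.6, 72.0 and 72.8 in WT and 44.2, 54.4 and 46.0 in PPARγ-KO. Neither gene had overlapping groups at either time. The decreases were 2.21-fold for Fitm1 (log2 fold change -1.15 ± 0.109, adjusted p = 0.00102, edgeR) and 2.05-fold for Fitm2 (-1.04 ± 0.1, adjusted p = 0.00106) at 2 months. At 5 months they were 1.79-fold (-0.84 ± 0.154, adjusted p = 0.00896) and 1.57-fold (-0.65 ± 0.0891, adjusted p = 0.000304). Both genes passed at both times under each of the 13 alternatives tried. Markers of skeletal muscle, the tissue Fitm1 is known from, were near 0: the 8 marker genes summed to 0.609 to 1.32 CPM over the 12 libraries, and the muscle actin Acta1 had 0 to 2 counts. Fitm1 shares 109 exon bases (11.2%) with the antisense gene Gm15932, and Fitm2 shares 227 (5.72%) with 2310001K24Rik.

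G0s2 was variable at 2 months. CPM was 145, 213 and 90.2 in WT and 107, 43.1 and 64.3 in PPARγ-KO, overlapping ranges with a log2 fold change of -1.07 ± 0.494 (adjusted p = 0.354, edgeR). At 5 months CPM was 125, 106 and 107 in WT and 79.6, 78.8 and 86.4 in PPARγ-KO, and G0s2 fell 1.37-fold (log2 fold change -0.45 ± 0.0749, adjusted p = 0.00104). In a fit of all 12 libraries with 1 shared estimate of the spread, that adjusted p was 0.484. Pnpla2, the lipase that G0s2 inhibits, had a CPM of 94.9, 95.8 and 90.0 in WT and 59.1, 53.9 and 69.4 in PPARγ-KO at 2 months (log2 fold change -0.62, adjusted p = 0.00963, and 0.0551 without PPARγ-KO replicate 1). At 5 months its log2 fold change was -0.18 (adjusted p = 0.114).

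Whether one paralog changed relative to another was tested within libraries, where scaling cancels, on the log2 ratio of 2 genes. The test was an exact two-sided permutation of the genotype labels within each time, over 400 arrangements, of the mean of the PPARγ-KO minus WT differences at 2 and 5 months, and 11 pairs were compared without adjustment over pairs. Of these, 8 pairs had an exact permutation p of 0.005, the smallest that this design can give. The pairs share genes with each other and libraries with the single-gene tests above, so these are not 8 separate results. Cidea relative to Cideb changed by -8.37 at 2 months and -6.57 at 5 months on the log2 scale, and Cidec relative to Cideb by -4.17 and -2.87. Cidea relative to Cidec changed by -4.20 and -3.70. With 0 to 2 counts of Cidea in the PPARγ-KO libraries at 2 months, the ratios with Cidea depend on the prior count: with 2 in place of 0.5, the 2-month changes were -7.16 relative to Cideb and -3.01 relative to Cidec, and both pairs kept an exact permutation p of 0.005. Among the perilipins, Plin4 changed relative to Plin3 by -3.58 and -2.74, relative to Plin5 by -3.38 and -2.68, and relative to Plin2 by -2.88 and -1.82. Plin2 relative to Plin3 changed by -0.70 and -0.93, and Plin5 relative to Plin2 by 0.50 and 0.86. In each of these 8 pairs the 3 PPARγ-KO ratios lay outside the range of the 3 WT ratios at both times.

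Plin5 relative to Plin3, Fitm1 relative to Fitm2 and G0s2 relative to Pnpla2 did not pass. Their mean differences were -0.13 (exact permutation p = 0.155), -0.16 (exact permutation p = 0.135) and -0.36 (exact permutation p = 0.145). The share of Fitm1 in the FIT sum per kb was 64.3% ± 2.96 in WT and 62.4% ± 4.49 in PPARγ-KO at 2 months, and 78.3% ± 0.368 and 75.8% ± 1.81 at 5 months.

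**Figure D4:**
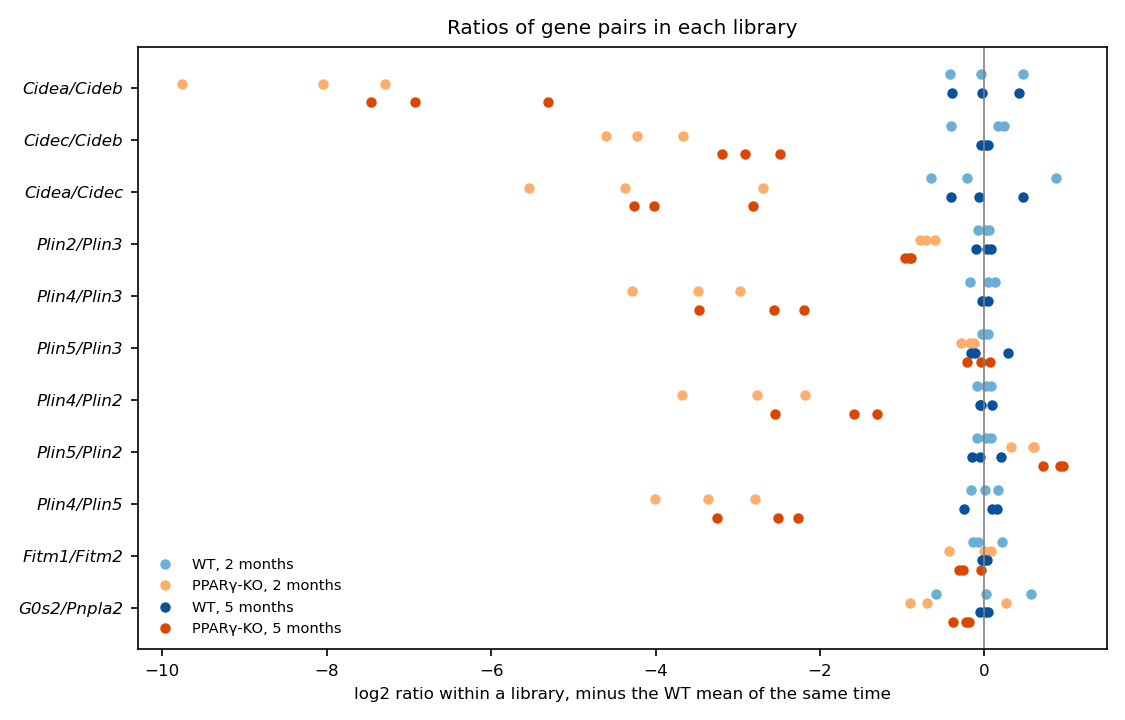
Log2 ratio of the 2 genes of each pair in each library, minus the WT mean of the same time, with a point per library. In the 8 pairs with exact p = 0.005 all PPARγ-KO points lie on 1 side of the WT points of their time, to the left except for Plin5/Plin2.

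Over time the share of the 10 genes that passed was close to that of all genes. In WT livers from 2 to 5 months 4 of the 10 genes passed, Plin3, Plin5 and Fitm1 higher and Fitm2 lower, beside 46.4% of all 14491 genes tested. In PPARγ-KO livers 5 of the 9 tested genes passed, Cidec, Plin3, Plin5 and Fitm1 higher and Cideb lower, beside 44.9% of all 14478 genes tested. Groups did not overlap for the same 4 and 5 genes, beside 56.8% and 55.6% of all genes tested. The sources used here do not say if 2- and 5-month libraries were made side by side, so the length of the diet, the age of the mice and the handling of the samples cannot be told apart.

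Plin5 rose in both genotypes, 2.13-fold in WT (log2 fold change 1.09 ± 0.0939, adjusted p = 1.15e-05, edgeR) and 2.65-fold in PPARγ-KO (1.41 ± 0.0908, adjusted p = 1.32e-06). Plin3 rose as well, 1.55-fold in WT (0.64 ± 0.0866, adjusted p = 0.000195) and 1.77-fold in PPARγ-KO (0.82 ± 0.0612, adjusted p = 2.89e-06). These perilipins, which did not pass between genotypes, thus passed over time in each. Plin2 passed over time in neither, with log2 fold changes of 0.14 (95% interval -0.09 to 0.38) in WT and 0.11 (-0.04 to 0.26) in PPARγ-KO. The share of Plin2 in the perilipin sum per kb was 87.7% ± 0.241 in WT and 86.1% ± 1.15 in PPARγ-KO at 2 months, and 83.0% ± 0.85 and 75.3% ± 1.23 at 5 months, while that of Plin5 was 4.88% ± 0.265, 6.81% ± 0.638, 8.84% ± 1.06 and 14.5% ± 1.09 in the same order.

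Fitm1 rose 1.33-fold over time in WT (log2 fold change 0.41 ± 0.0848, adjusted p = 0.00265, edgeR) and 1.62-fold in PPARγ-KO (0.70 ± 0.178, adjusted p = 0.018). Fitm2 went the other way in WT, falling 1.52-fold (-0.60 ± 0.0957, adjusted p = 0.000514), and had a log2 fold change of -0.23 in PPARγ-KO (adjusted p = 0.0701). Cidec had a log2 fold change of -0.06 in WT (95% interval -0.56 to 0.44, and -0.28 with an adjusted p of 0.00656 without WT replicate 1 of 2 months) and rose 2.12-fold in PPARγ-KO (1.08 ± 0.24, adjusted p = 0.0112). Without PPARγ-KO replicate 3 of 2 months only Plin3 and Plin5 passed in PPARγ-KO, and Cidec had an adjusted p of 0.0508. Cideb was lower over time in PPARγ-KO by a log2 fold change of -0.22 (adjusted p = 0.0232), a call that was lost by DESeq2 and without any of 4 of the 6 libraries. Cidea had too few counts in PPARγ-KO to be tested over time, and in WT its log2 fold change was 0.51 (adjusted p = 0.187, and 0.00343 with the replicate block). The plot of changes over time shows both genotypes side by side.

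**Figure D5:**
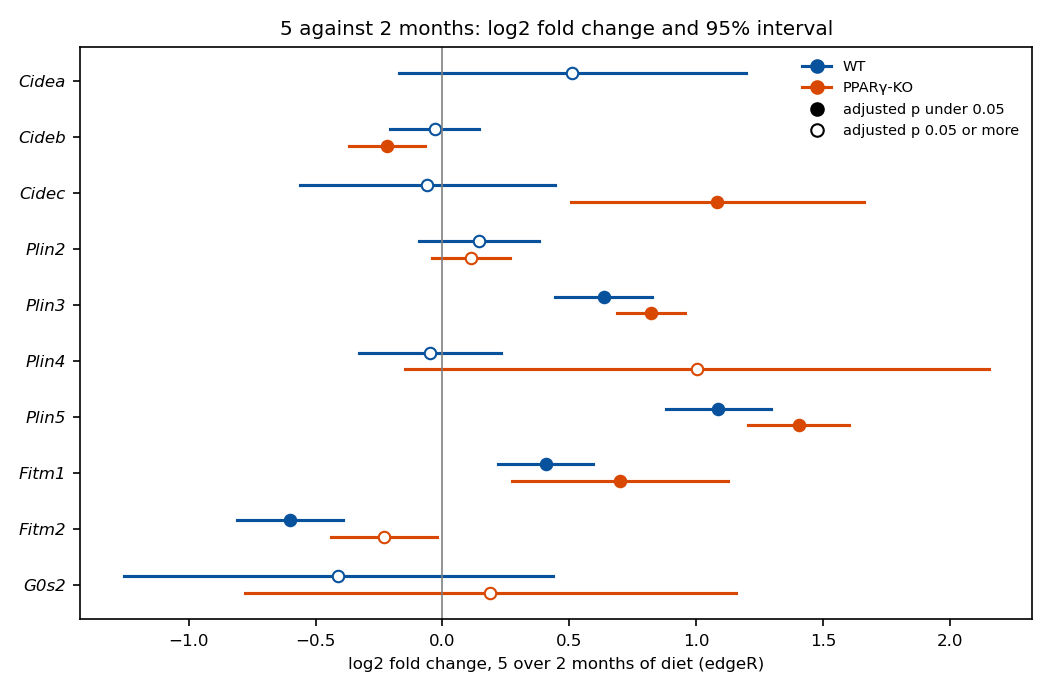
Log2 fold change of 5 over 2 months from edgeR, with 95% confidence intervals, in WT (blue) and PPARγ-KO (orange). Filled points passed an adjusted p of 0.05, and Plin3, Plin5 and Fitm1 are filled and right of 0 in both genotypes, while Cidea has no PPARγ-KO point because it was not tested there.

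The PPARγ-KO minus WT difference was smaller in size at 5 than at 2 months for each fallen gene except Plin2. Tested as an interaction in all 12 libraries, 0 of the 10 genes passed by edgeR, beside 1.57% of all 15127 genes tested, while 3 had an unadjusted p under 0.05 and DESeq2 called 1, Cidec. The interaction of Cidec was 1.15 ± 0.375 on the log2 scale (unadjusted p = 0.014, adjusted p = 0.191, edgeR), that of Fitm2 0.37 ± 0.145 (unadjusted p = 0.0217, adjusted p = 0.235) and that of Plin5 0.32 ± 0.139 (unadjusted p = 0.0355, adjusted p = 0.291). For Plin2 the interval of the interaction ran from -0.31 to 0.25.

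Ordered by level per kb, WT livers at 2 months had Plin2 first (302 CPM per kb), followed by G0s2 (172), Cidec (80.6), Fitm1 (52.5), Cideb (35.7) and Fitm2 (29.2), each range clear of the next. Plin5 (16.7), Cidea (15.2), Plin3 (14.2) and Plin4 (11.3) closed the order with ranges that overlapped from neighbour to neighbour. In PPARγ-KO at 2 months Cideb held place 3 (44.4) and Cidec place 8 (5.56), followed by Plin4 (0.974) and Cidea (0.0475), each clear of the next. At 5 months Plin2 (334) and G0s2 (129) again led in WT, Cidec (77.4) and Fitm1 (69.8) overlapped, as did Plin5 (35.6) and Cideb (34.9), and Plin4 (10.9) was last. In PPARγ-KO at 5 months Fitm1 (38.6), Cideb (38.3) and Plin5 (38.3) held places 3 to 5 with overlapping ranges, and Cidec (11.8) overlapped with Fitm2 (12.1). The places of Cideb are uncertain, since most of its exon bases are shared with Nop9.

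The promoters were searched for the direct repeat of the nuclear receptor half-site, AGGTCANAGGTCA, the sequence that PPARγ binds together with its partner RXR. RefSeq promoters of mouse GRCm38.p6, 250 bases before to 50 after a start site, were matched by symbol for 9 of the 10 genes, in 11 windows. Cidea, the gene with the largest fall, had no matched promoter and was not searched. The Plin3 window, chr17:56290462-56290761, lies inside the counted gene. On the minus strand that gene begins at 56292873, and no window covered that start. The windows were searched on both strands with at most 2 mismatches over the 12 fixed letters. Such a match was found in 3.86% of all 32851 promoters and in 1 of the 9 genes, Plin2, at 225 to 213 bases before the start. The half-site AGGTCA alone, which overlaps the longer motif, was in 16.3% of all promoters and in those of Plin2 and Plin5. The closest stretch before the start site is shown for the fallen Plin2, Cidec and Plin4 and for the perilipins that did not fall, with 8 bases on each side, on the strand of the gene. Capitals mark the 13 bases closest to the repeat, which read on the opposite strand in Plin2, Cidec and Plin3.
Plin2 (chr4:86670264-86670292, minus strand, 2 mismatches): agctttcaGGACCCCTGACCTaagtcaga
Cidec (chr6:113435954-113435982, minus strand, 3 mismatches): tgcttctgTGCCCTCTTGCCTagtgccat
Plin4 (chr17:56109913-56109941, minus strand, 4 mismatches): tggagagcAGGGGAAAGGTGCtgggttgg
Plin5 (chr17:56117705-56117733, minus strand, 3 mismatches): ctcagtccTAGTCTGAGGTCAgccatggt
Plin3 (chr17:56290563-56290591, minus strand, 3 mismatches): ctctgattGGCCCTCTGTCCTgtcactcc
With at most 3 mismatches the repeat was in 24.6% of all promoters and in 8 of the 11 windows (72.7%), those of 7 of the 9 genes, all but Plin4 and Fitm2. The fallen and the spared perilipins were not set apart by this count in these short windows, and a match describes letters, not binding.

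Other genes of the droplet were described from 2 lists. Of 15 tested genes for droplet surface and biogenesis, 0 passed at 2 months by edgeR (3 at an unadjusted p under 0.05, and 0 by DESeq2), and their median log2 fold change was 0.05. At 5 months 2 were called higher and 4 lower, and the median was 0.01. The share called over all genes tested was 3.56% at 2 months and 18.4% at 5 months. Named after their values were seen, the genes called higher were Pcyt1a and Vps13c, and those called lower Hilpda, Hsd17b11, Hsd17b13 and Mettl7b. Hilpda, an inhibitor of Pnpla2 induced by low oxygen and lipid, had a CPM of 7.29, 7.93 and 6.73 in WT and 4.11, 4.05 and 4.04 in PPARγ-KO at 5 months (log2 fold change -0.84, adjusted p = 0.00195, edgeR). Bscl2, which encodes the droplet assembly protein seipin, had log2 fold changes of 0.13 (adjusted p = 0.365) and 0.07 (adjusted p = 0.543). Of 6 genes of triglyceride lipolysis, Pnpla2 alone was called at 2 months, as lower, and Pnpla3 alone at 5 months, as higher (log2 fold change 1.07, adjusted p = 0.0488). No gene of these lists was called at both times.

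For each gene called at both times, the genes with the most similar pattern over the 12 libraries were read from Pearson's r of log2 CPM among 13170 genes, as a description of libraries that share 4 groups. Ermp1 was closest to Cidea (r = 0.969), Cidec (0.979) and Plin4 (0.98). Cidec was second for Cidea (0.967), Plin2 second for Cidec (0.973), and Cidea second for Plin4 (0.96). The genes at rank 3 were 4931406C07Rik (0.963), Gprc5b (0.971) and Acad12 (0.958). Vnn1 was closest to Plin2 (0.981), followed by Gprc5b (0.979) and Cidec (0.973). Acyp2 (0.966) and Atxn10 (0.954) were among the closest to Fitm1, and Slc25a10 (0.987), Pcx (0.985) and Aldh3a2 (0.973) to Fitm2. With group means taken out, r of these pairs ran from 0.0167 (Cidea with Cidec) to 0.931 (Plin2 with Gprc5b). It was 0.842 for Cidec with Plin2. For Ermp1 it was 0.0343 with Cidea, 0.279 with Cidec and 0.603 with Plin4.

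The tissue is bulk liver, where fewer cells of a type and less RNA per cell cannot be told apart. Hepatocyte markers were present throughout, and the 10 of them summed to 58400 to 73000 CPM in WT and 75900 to 91000 in PPARγ-KO at 2 months, and to 57400 to 60700 and 75500 to 87200 at 5 months. Alb made up most of these sums. In PPARγ-KO 9 of the 10 markers were higher and 1 lower at 2 months (median log2 fold change 0.35). At 5 months 8 were higher and 2 lower (median 0.17). By edgeR 0 were called at 2 months (6 at an unadjusted p under 0.05, and 4 by DESeq2). Alb, Hnf4a and Tat, 3 of the 10, were called higher at 5 months. Cyp2e1, among the lower at both times, had log2 fold changes of -0.13 and -0.19 that did not pass. Hnf4a, Tat and Cyp2e1 were named after their values were seen. Over all genes tested, 3.56% were called at 2 months and 18.4% at 5 months. Of the adipocyte markers, Adipoq had 0 or 1 counts in every library, and 2 to 6 of the 10 genes had 0 counts in all libraries of a group. The list summed to 3740 to 4420 CPM in WT and 3090 to 4560 in PPARγ-KO at 2 months, and to 3330 to 4170 and 2770 to 3770 at 5 months. Car3 and Pck1 made up most of these sums, with means of 2530 and 1509 CPM in WT at 2 months. Pck1 is also on the hepatocyte list, so the sums do not measure fat cells. Of the 5 tested genes of the adipocyte list, 1 was called lower at 2 months (Car3) and 2 at 5 months (Car3 and Cfd). Car3, Pck1 and Cfd were named after their values were seen. Cfd, the complement factor D of fat cells, had 70 to 599 counts in the WT libraries and 0 in all 6 PPARγ-KO libraries.

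The 8 macrophage markers summed to 489 to 621 CPM in WT and 506 to 597 in PPARγ-KO at 2 months, and to 1350 to 1560 and 632 to 836 at 5 months, where all 8 were called lower (1 was called higher at 2 months). The sums overlapped between genotypes at 2 months and not at 5 months. The 8 stellate cell markers summed to 432 to 457 and 344 to 375 CPM at 2 months (1 called lower) and to 495 to 549 and 427 to 470 at 5 months (2 called lower), with no overlap between genotypes at either time. Dcn, named after its values were seen, had the highest level of the 8. Its means were 196 CPM in WT and 154 in PPARγ-KO at 2 months, and 296 and 233 at 5 months. In PPARγ-KO 5 of the 8 were lower and 3 higher at 2 months (median log2 fold change -0.28). At 5 months 6 were lower and 2 higher (median -0.05). Endothelial markers (6 genes) summed to 209 to 328 CPM, cholangiocyte markers (6 genes) to 68.1 to 280 and lymphocyte and neutrophil markers (9 genes) to 3.31 to 16.7. Spp1, named after its values were seen, made up most of the cholangiocyte sums (mean 128 CPM in WT at 2 months). At 2 months 6, 6 and 4 genes of these lists were tested, and 0 were called by edgeR. In the same order, 2, 1 and 1 had an unadjusted p under 0.05 and 0, 1 and 0 were called by DESeq2. All 4 tested lymphocyte and neutrophil genes were lower in PPARγ-KO at 2 months. At 5 months 2 of 6 tested endothelial and 2 of 7 tested lymphocyte or neutrophil genes were called lower, and 1 of 5 tested cholangiocyte genes higher. Beside these marker counts, 3.56% of all genes tested were called at 2 months and 18.4% at 5 months. The part of these cells in the results was not tested.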

How the data were processed

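Total liver RNA was sequenced by Novogene on an Illumina NovaSeq. The authors deposited, per library, counts of reads per gene without normalization. The paper's methods name STAR and the submitters' processing notes HISAT2, both with mm10. The counting program, annotation version and strand setting are not given in the sources used here.

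From these counts, each comparison was fitted on its own 6 libraries, and the interaction on all 12 with 4 group means, by edgeR 4.0.16 in R 4.3.3 (filterByExpr, TMM, robust quasi-likelihood F-test, two-sided, Benjamini-Hochberg over all genes tested, adjusted p under 0.05). Cidea was left out over time in PPARγ-KO by that filter. The ± after a log2 fold change is its standard error, and after a level the SD of 3 libraries. Log2 ratios used CPM with a prior count of 0.5. Alternatives were DESeq2 1.42.0, other scalings, filters and thresholds, the replicate number as a block, a joint fit of the 12 libraries, leaving out each library, and for ratios a prior count of 2 and single times. The genes, lists and tests were chosen with earlier results of these data known. Named by rule were the 10 genes, Pparg, Pnpla2, Plin1, Hilpda, Bscl2, list genes called at both times, and 3 most similar genes per gene called at both times, of which 1 is not reported here.

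Same-numbered libraries of WT and PPARγ-KO at 2 months correlated at 0.221, 0.325 and 0.139 over the 5000 most abundant genes once group means were removed, so blocked values stand beside the 2-month calls they change. In each other comparison at least 1 same-numbered pair correlated under 0.1. Between replicates chi-square per gene ran from 2.44 to 31.7, so no pair agreed within sampling noise. The value of 2.44 was that of WT replicates 2 and 3 at 5 months, and the next lowest was 9.4. Whether that close pair came from separate mice is not given by the labels. The fits were tested on simulated data in which 200 genes carried a log2 change of 1.5, and edgeR recovered 166 (2 months, 14573 genes), 181 (5 months, 14138), 179 (WT over time, 14491), 176 (PPARγ-KO over time, 14478) and 139 (interaction, 15127), with 7.78%, 6.7%, 10.1%, 9.28% and 7.33% false calls.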

Additional observations from a re-analysis of the deposited data

Results flagged for a closer look

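The gene of the floxed receptor itself differed between the times. The log2 fold change of Pparg in PPARγ-KO against WT was 0.62 larger at 5 than at 2 months (adjusted p = 0.0432, edgeR interaction), with 3 of 3 PPARγ-KO libraries above the WT range at each time. Over the alternatives the adjusted p ran from 3.8e-05 to 0.122, and the call was lost with library size alone (0.0585) and without any 1 of 9 libraries. None of the 10 lipid droplet genes had such a difference by edgeR.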

How the results depend on the processing

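Of 1012 values of single genes recomputed under other settings, 944 kept their direction and their side of the threshold, 32 lost a call, 20 gained one and 16 changed sign. The number of the 10 genes called was 4 to 7 at 2 months and 6 to 8 at 5 months over all settings, against 6 and 7. Over time in PPARγ-KO it was 5, and 2 to 7 with 1 library left out, the 2 being without PPARγ-KO replicate 3 of 2 months. For the interaction it was 0, but 1 by DESeq2, 1 at an unadjusted p under 0.05 with a 1.3-fold minimum, and 0 to 1 with 1 library left out. Of the 11 pair ratios, 8 passed, 8 to 9 with 1 library left out and 8 with the replicate block, but 0 at 2 months alone and 0 at 5 months alone, where the smallest exact p is 0.1. Changes of sign concerned small log2 values that did not pass. Between genotypes at 2 months, Nop9 had 0.00424 without a filter and 0.000496 with the replicate block, and with 1 library left out it ran from -0.12 to 0.11 and Plin3 from -0.078 to 0.049. Over time with 1 library left out, Cideb ran from -0.093 to 0.0065, Cidec from -0.28 to 0.080 and Plin4 from -0.18 to 0.095 in WT, and G0s2 from -0.068 to 0.59 in PPARγ-KO. The interaction of Plin2 ran from -0.13 to 0.066. The causes were not tested. With the replicate block Cidec lost and Cideb gained a call at 2 months, and Cidea gained one over time in WT. Cidea gave no value with at least 10 counts in every library. Depth limited Cidea in PPARγ-KO, with at most 13 counts in a library.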
